A study of Mus musculus with 6 samples.

Results

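Regulatory T cells hold back immune responses, and the transcription factor Foxp3 defines them. TGFβ, which is also used to make Th9 cells, can switch Foxp3 on in activated CD4 T cells, while IL-4 given with it favours the Th9 state, named for interleukin 9. The genes described here are 9 of the 23091 named genes in the files, chosen by name as a group that marks regulatory T cells. Foxp3, Ikzf2 (Helios) and Ikzf4 (Eos) encode nuclear factors. Lrrc32 (GARP) holds latent TGFβ at the cell surface, Itgae (CD103) is an integrin chain, Nrp1 (neuropilin 1) is a receptor for semaphorins and vascular growth factors, and Gpr83 is a G protein-coupled receptor. Entpd1 (CD39) and Nt5e (CD73) are surface enzymes that together turn extracellular ATP into adenosine.

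The 6 libraries form 6 groups of 1 library each, so no difference within a stage has a replicate check. Naive CD4 T cells of 7-week-old wild-type C57/Bl6j mice were stimulated through CD3 and CD28 on coated plates. Every culture held 20 ng/ml IL-4, 2 ng/ml TGFβ and an antibody that blocks interferon γ, and IL-1β was either left out or added at 10 ng/ml. Cells were taken after 1 h, after 3 days, or in vivo. The in vivo cells carried CD45.2, were injected after 3 days of culture into CD45.1 hosts and were sorted 1 week later. The labels give neither the tissue they were recovered from nor the number of animals behind a library. The 1 h libraries were made from rRNA-depleted RNA and the other 4 from poly(A)-selected RNA, so time and RNA selection cannot be told apart between 1 h and day 3.

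Values are the authors' FPKM, numbers of fragments divided by the length of the transcript and by the library's total, with a lower and an upper bound for each gene in each library. The confidence level of that interval is not given. The values of some abundant genes lie above their own upper bound, while those of the 9 genes lie within their bounds. To enter a comparison a gene needed 5 FPKM or more in either library. It was called higher or lower, or counted, if its (FPKM + 1) differed at least 2-fold and its intervals did not overlap. A gene that reached 5 FPKM in only 1 of the libraries could enter only by standing high there, so counts over a list are descriptions. The same holds for the limma fits below, which use the same minimum. Log2 ratios below are of (FPKM + 1). In the poly(A)-selected libraries 9 of 9 T cell markers reached 5 FPKM, with Cd4 between 172 and 231 FPKM and Cd3e between 318 and 360 FPKM. The median half-width of the interval, among genes at 5 FPKM or more, was 23.4% to 27% of the value in these libraries, against 69.9% and 42.1% at 1 h without and with IL-1β. Epithelial marker genes summed to 6572 FPKM in vivo without IL-1β and 17036 FPKM with it, against 13.2 and 14.5 FPKM at day 3. Some values in these sums exceed their upper bound, such as Scgb1a1 in vivo with IL-1β, at 5710 FPKM (2572 to 2908). The in vivo libraries thus held RNA of genes that mark other cells. In bulk samples of this kind fewer cells of a type and less RNA per cell cannot be told apart.

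The promoter sequences below are shown for 3 genes that stood higher together with IL-1β in vivo (Foxp3, Nrp1 and Nt5e) and for Gpr83, which stayed between 15.8 and 19.1 FPKM in the 4 poly(A)-selected libraries. Each is the 250 bases before a start site, 5′ to 3′, from RefSeq on build GRCm38.p6, plus strand. Capitals mark a match to a searched motif. RefSeq gives 2 start sites for Foxp3, at chrX:7579426-7579675 and chrX:7580233-7580482. The window of Nrp1 is chr8:128358823-128359072, that of Nt5e chr9:88327359-88327608 and that of Gpr83 chr9:14859960-14860209.
Foxp3, first window: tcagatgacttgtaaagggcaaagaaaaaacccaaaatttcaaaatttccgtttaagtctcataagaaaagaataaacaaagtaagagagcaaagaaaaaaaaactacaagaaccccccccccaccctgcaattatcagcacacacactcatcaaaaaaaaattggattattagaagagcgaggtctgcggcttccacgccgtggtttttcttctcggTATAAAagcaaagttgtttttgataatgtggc
Foxp3, second window: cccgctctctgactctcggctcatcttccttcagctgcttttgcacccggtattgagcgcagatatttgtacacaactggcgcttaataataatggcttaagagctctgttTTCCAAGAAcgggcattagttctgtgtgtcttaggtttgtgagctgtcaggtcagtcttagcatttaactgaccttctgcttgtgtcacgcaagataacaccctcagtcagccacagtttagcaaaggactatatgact
Nrp1: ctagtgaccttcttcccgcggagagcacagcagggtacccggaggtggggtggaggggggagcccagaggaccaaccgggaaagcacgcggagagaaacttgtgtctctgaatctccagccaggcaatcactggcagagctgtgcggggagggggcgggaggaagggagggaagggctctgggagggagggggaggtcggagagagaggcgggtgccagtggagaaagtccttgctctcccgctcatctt
Nt5e: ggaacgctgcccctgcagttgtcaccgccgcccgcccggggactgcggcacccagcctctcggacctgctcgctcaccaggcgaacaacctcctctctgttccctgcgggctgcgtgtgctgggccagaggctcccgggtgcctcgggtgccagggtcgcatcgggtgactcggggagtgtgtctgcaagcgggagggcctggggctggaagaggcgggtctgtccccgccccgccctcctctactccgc
Gpr83: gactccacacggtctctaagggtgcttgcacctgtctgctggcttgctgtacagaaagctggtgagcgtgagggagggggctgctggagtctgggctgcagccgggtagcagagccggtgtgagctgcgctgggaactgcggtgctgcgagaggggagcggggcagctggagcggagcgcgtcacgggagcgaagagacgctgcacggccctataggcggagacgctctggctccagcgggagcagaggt

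Windows were found for 5 of the 9 genes, 7 windows in all with the 2 of Entpd1. Both strands were searched for a TATA box (TATAAA), AP-1 (TGANTCA), STAT (TTCNNNGAA), Runx (ACCACA), the interferon-stimulated response element and kappa B. The first Foxp3 window holds TATAAA 32 bases before the start, a motif found in 12.4% of 32841 RefSeq windows of this length. The second holds a STAT match 139 bases before the start, against 7.02% of windows. AP-1 was found in 6.75% of all windows, the interferon-stimulated response element in 2.98%, Runx in 14.1% and kappa B in 3.90%. The letters of these motifs are not in the windows of Nrp1, Nt5e, Gpr83 or Entpd1. The 2 Foxp3 windows have a GC content of 37.6% and 46%, those of Nrp1, Gpr83 and Nt5e 64.4%, 66.8% and 72%, and the median over all windows is 52.4%. A match is a description of the letters, and FPKM per gene does not separate the start sites of Foxp3.

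At 1 h the 9 genes were at the edge of detection. They ranged from 0 to 1.87 FPKM without IL-1β and from 0 to 1.00 FPKM with it, and 4 and 3 of them were listed at 0. Foxp3 was listed at 0 without IL-1β (interval 0 to 2.38) and at 0.890 FPKM (0 to 2.30) with it. None of the 9 was compared, as none reached 5 FPKM. Of the 933 genes compared at 1 h, 7.72% were higher and 0.214% lower. The intervals of the 9 genes overlapped between the libraries, so no effect of IL-1β on them was detectable at this depth.

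Several of these 1 h values stood in 1 fixed ratio. Ikzf2 was listed at 0.693 FPKM without IL-1β and 0.297 with it, Ikzf4 at 0.624 and 0.268, and Nt5e at 1.87 and 0.803. In each of the 3 genes the ratio of the library with IL-1β to the other was 0.429. The upper bound was also the same multiple of the value in both libraries (1.97 for Ikzf2, 1.92 for Nt5e, and 2.88 and 2.87 for Ikzf4). Across 4099 genes above 0 and under 5 FPKM in both libraries, 704 had equal relative upper bounds within 1%, and 645 of these (91.6%) stood at this ratio. A further 538 genes lay within 1% of 2 times this ratio and 367 within 1% of 3 times. One fragment was therefore worth 2.33 times as many FPKM in the library without IL-1β as in the other. The values of Ikzf2, Ikzf4 and Nt5e are those of equal fragment numbers in both libraries, and Lrrc32 (0.584 and 1.00 FPKM) stood at 4 times the ratio. A ratio of 0.429 in these genes is thus no difference in fragments. At day 3 the corresponding ratio was 1.10 and in vivo 0.979, so that depth differed less there.

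**Figure D1:**
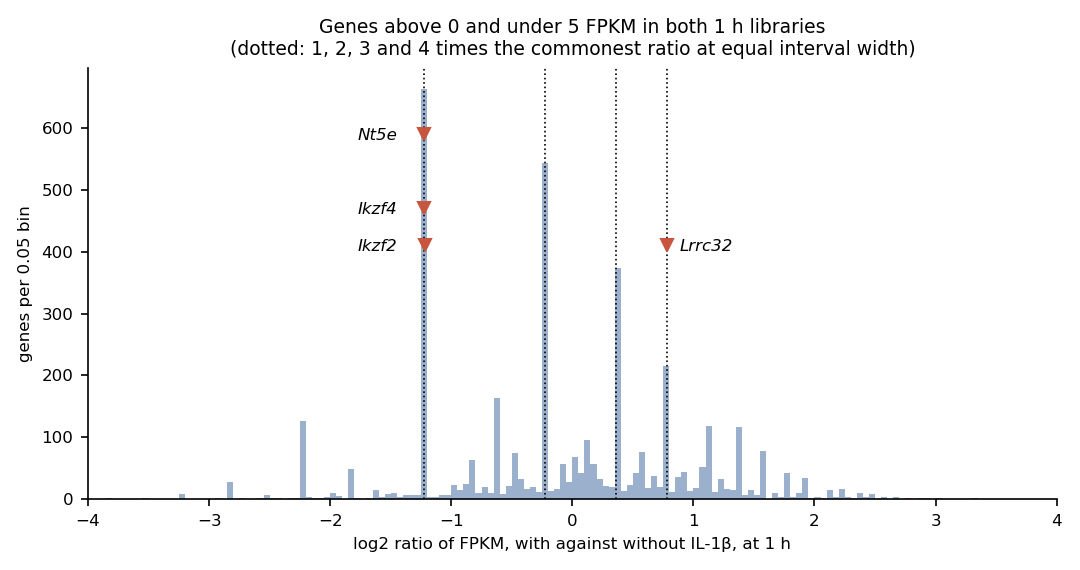
Number of genes (vertical axis) by the log2 ratio of FPKM at 1 h, with against without IL-1β (horizontal axis), for 4099 genes above 0 and under 5 FPKM in both libraries. The values pile up at the ratio 0.429 and at its multiples, and the 3 genes Ikzf2, Ikzf4 and Nt5e lie on the first of these spikes.

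By day 3 a part of the group was well expressed in Th9 cells. Lrrc32 (mm9 7:105642732-105650340) was the most abundant of the 9, at 51.0 FPKM (44.0 to 57.1) without IL-1β and 32.2 FPKM (26.9 to 37.5) with it. It stood above 93.9% and 89.8% of all genes in these libraries. Gpr83 (9:14664698-14673943) followed at 19.1 and 18.9 FPKM, and Ikzf4 (10:128069471-128083049) at 17.6 and 10.2 FPKM. Foxp3 (X:7156802-7172369), at 7.55 and 7.61 FPKM, stood above 71.7% and 73.1% of all genes. Without IL-1β the order was Lrrc32, then Gpr83 and Ikzf4 with overlapping intervals, then Foxp3, each step being clear of the next. With IL-1β the interval of Ikzf4 overlapped that of Foxp3 and no longer that of Gpr83.

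The other 5 genes stayed low in culture. Entpd1 (19:40734284-40816092) stood at 2.21 and 1.52 FPKM at day 3, Ikzf2 (1:69577784-69732534) at 2.10 and 1.38, Nrp1 (8:130882973-131029375) at 1.54 and 1.17, and Nt5e (9:88222447-88266927) at 1.31 and 1.79. Itgae (11:72904097-72960951) was lowest at 0.911 and 0.667 FPKM, with lower bounds of 0. In each library the intervals of neighbours in this order overlapped. The RNA of Ikzf2 (Helios) was thus low where that of its relative Ikzf4 (Eos) was among the most abundant of the group.

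Between 1 h and day 3, Foxp3, Ikzf4, Lrrc32 and Gpr83 were counted as higher, 4 of 4 compared in each arm. Of all genes compared without IL-1β 95.7% were higher and 0.299% lower, and with it 95.5% and 0.595%, so the share of the 4 is that of the background. Summed T cell markers also moved, from 73.0 to 2319 FPKM without IL-1β and from 89.4 to 2659 FPKM with it. With the median of all genes set to 0, Foxp3 with IL-1β had a log2 ratio of -0.10 in place of 2.19. This setting scaled the day 3 values down, so none of the 4 genes reached 5 FPKM and none could be counted. With the trend of ratios with transcript length removed instead, Lrrc32 stood at 2.05 without IL-1β, Gpr83 at 1.57, Ikzf4 at 0.93 and Foxp3 at 0.79. With IL-1β they stood at 1.45, 1.78, 1.04 and -0.0069. Nt5e went from 1.87 FPKM (0 to 3.59) to 1.31 FPKM (0.462 to 2.00) without IL-1β and from 0.803 to 1.79 FPKM with it, with overlapping intervals in both arms.

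**Figure D2:**
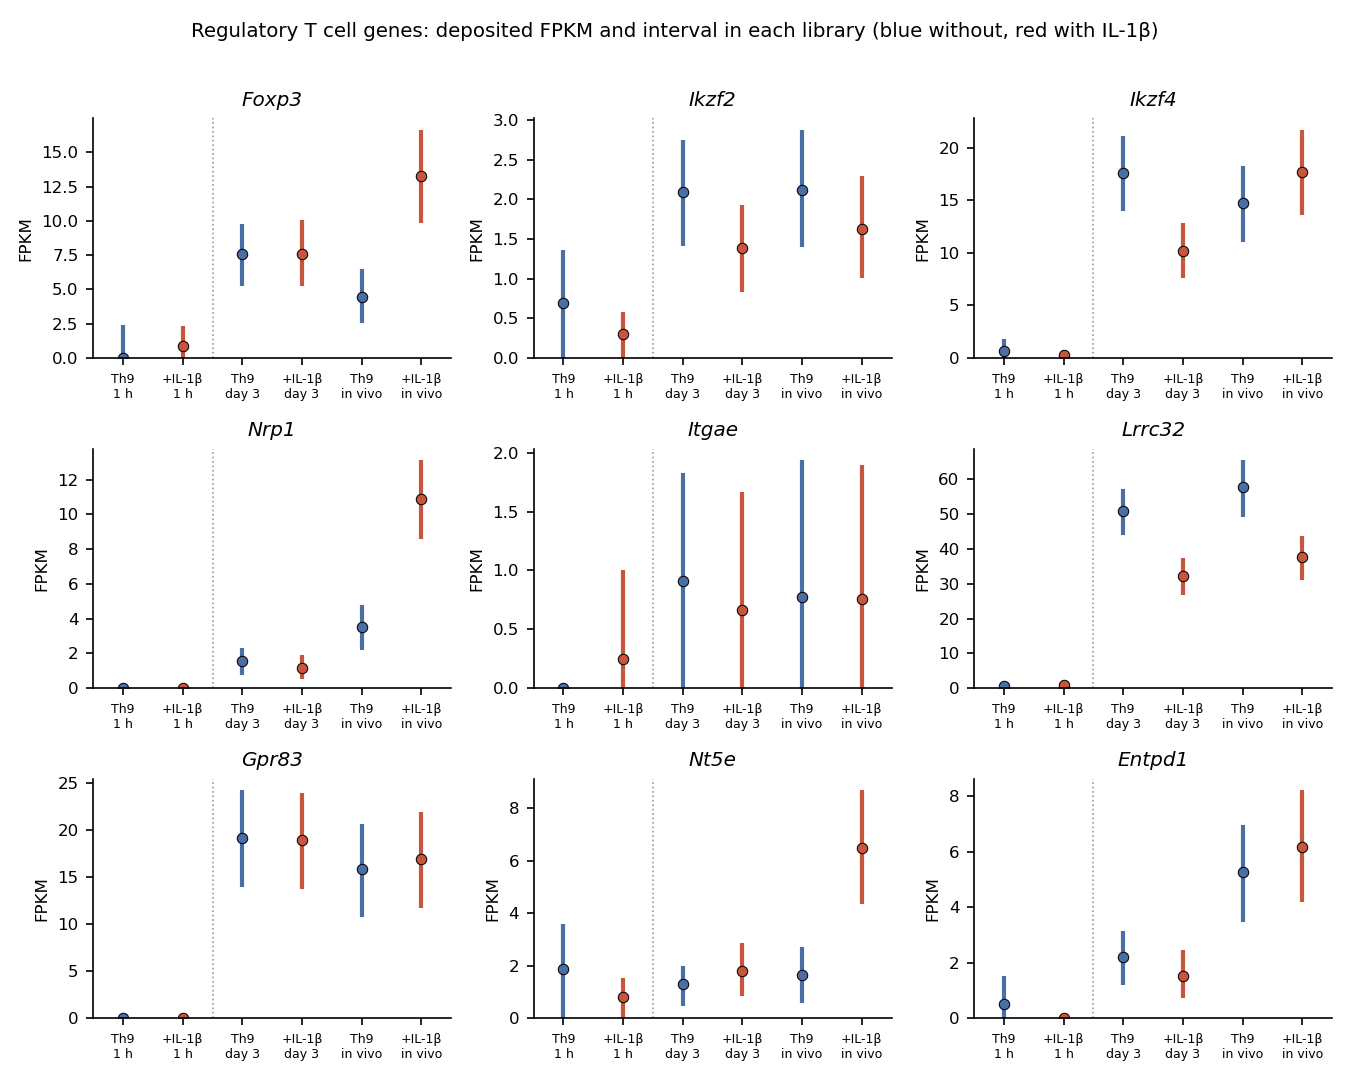
FPKM of each of the 9 genes in the 6 libraries (points; 1 library per group), with the authors' lower and upper bounds as bars. Lrrc32, Gpr83 and Ikzf4 lead at day 3, and Foxp3, Nrp1 and Nt5e have their highest values in the in vivo library with IL-1β.

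At day 3 IL-1β left Foxp3 and Gpr83 at nearly the same level, with log2 ratios of 0.01 and -0.02. Lrrc32 stood 1.58-fold lower with IL-1β (log2 ratio -0.65), and Ikzf4 stood at 10.2 FPKM (7.62 to 12.9) against 17.6 FPKM (14.0 to 21.1), 1.73-fold lower (-0.73). For both genes the intervals were apart, and neither met the 2-fold limit. None of the 4 genes compared was counted, where 1.29% of all genes were higher and 2.15% lower. The 5 genes under 5 FPKM had log2 ratios from -0.38 (Ikzf2) to 0.28 (Nt5e), with overlapping intervals. Ratios at day 3 also moved with transcript length, from a median of 0.34 in the shortest genes to -0.42 in the longest. With this trend removed, Ikzf4 (5150 bases) stood at -0.42 and Lrrc32 (4576 bases) at -0.39, and the intervals of both genes overlapped.

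In vivo, Foxp3, Nrp1 and Nt5e were higher in the cells that had been cultured with IL-1β. Foxp3 stood at 13.3 FPKM (9.86 to 16.6) with IL-1β and at 4.44 FPKM (2.55 to 6.49) without it, a 2.98-fold difference in FPKM. Nrp1 stood at 10.9 FPKM (8.59 to 13.1) against 3.54 (2.20 to 4.76), 3.07-fold in FPKM and 1.38 as a log2 ratio of (FPKM + 1). Nt5e stood at 6.50 FPKM (4.35 to 8.69) against 1.66 (0.582 to 2.72), 3.92-fold in FPKM and 1.5 as that log2 ratio. In each of the 3 genes the library with IL-1β in vivo was the highest of the 6. Its interval was clear of all the others for Nrp1 and Nt5e, and for Foxp3 it overlapped that of the day 3 library with IL-1β, which reached 10.0 FPKM.

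These 3 were the genes counted as higher among 7 compared, with 0 lower, where 6.23% of all genes compared were higher and 3.48% lower. Foxp3, Nrp1 and Nt5e reached 5 FPKM only in the library with IL-1β, so they could enter the comparison only by standing higher there, and the count is a description. With a pseudocount of 5, or with 3-fold in place of 2-fold, 0 of the 3 remained, and with a minimum of 10 FPKM Nt5e was not compared. The intervals of Foxp3, Nrp1 and Nt5e describe these 2 libraries only.

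The remaining genes did not move with them. Lrrc32 stood lower with IL-1β in vivo too, at 37.8 FPKM (31.2 to 43.8) against 57.8 (49.2 to 65.5), 1.53-fold lower (log2 ratio -0.60), with intervals apart. In the values as given, Lrrc32 was the only one of the 9 genes with intervals apart in the same direction at both stages, which share no library. With the length trend at day 3 removed, its intervals overlapped there. The length trend in vivo was close to flat, and without it Lrrc32 stood at -0.62. Ikzf4 (17.7 against 14.7 FPKM), Gpr83 (16.9 against 15.8), Entpd1 (6.17 against 5.26), Ikzf2 (1.62 against 2.12) and Itgae (0.760 against 0.776) had overlapping intervals. For Itgae, too, the ratio of 0.979 was that of equal fragment numbers in both libraries.

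Among the genes compared in vivo, the order began with Lrrc32 in both libraries, its interval clear of the next gene. Without IL-1β, Gpr83 and Ikzf4 followed, and Foxp3 shared a lower range with Entpd1 and Nrp1. With IL-1β, each neighbour overlapped the next from Ikzf4 (17.7 FPKM) through Gpr83, Foxp3 and Nrp1 to Nt5e and Entpd1, and only Ikzf2 and Itgae stood clear below.

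**Figure D3:**
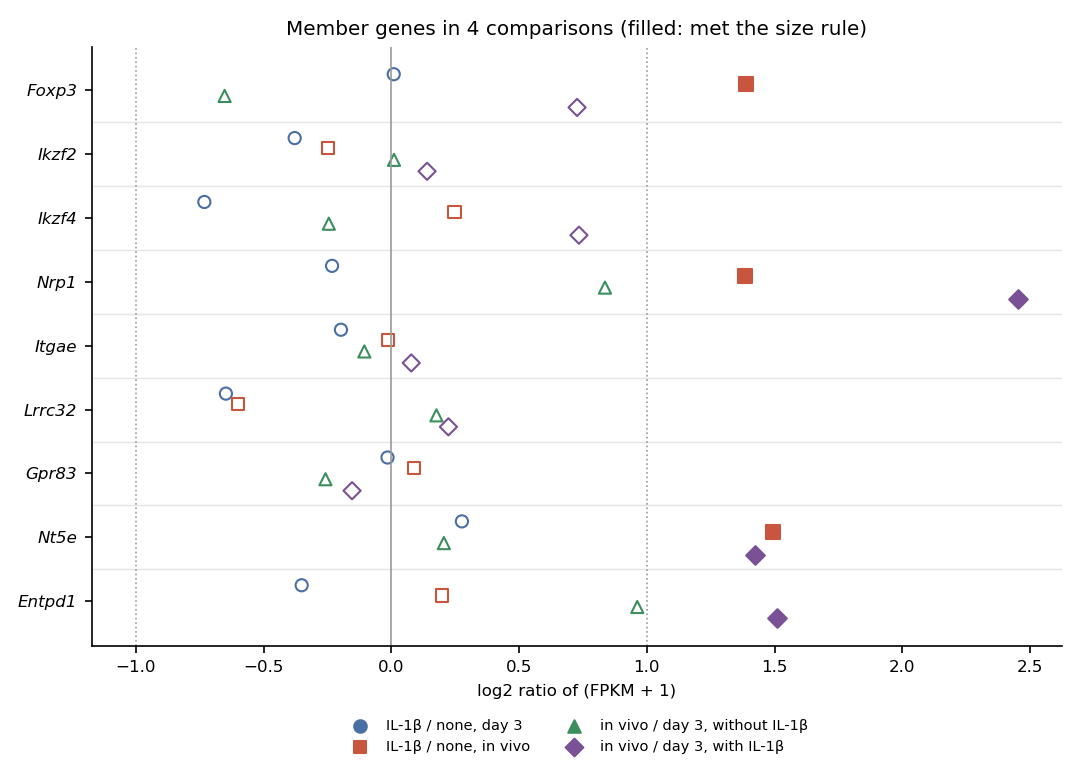
Log2 ratio of (FPKM + 1) on the horizontal axis for each of the 9 genes (rows) in 4 comparisons of 1 library with another. Filled symbols met the size rule: Foxp3, Nrp1 and Nt5e for IL-1β in vivo, and Nrp1, Nt5e and Entpd1 for in vivo against day 3 with IL-1β. Dotted lines mark 2-fold.

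The IL-1β effect shared by the stages was estimated with limma over the 6 libraries, with stage as a covariate. For the 7 of the 9 genes that could be tested it called none, and it called 0% of 8946 genes, with 320 of them at an unadjusted p under 0.05. Foxp3 had the largest estimate of the 7, a log2 difference of 0.77 (SE 0.356, unadjusted p 0.0611, adjusted p 0.937 in limma). Its ratios were positive at each of the 3 stages (0.92, 0.01 and 1.39), but the first rests on a value listed at 0. Without the 1 h stage limma gave Lrrc32 a log2 difference of -0.62 (SE 0.361, adjusted p 0.815) and Nt5e, which entered only through the in vivo library with IL-1β, one of 0.89 (SE 0.395, adjusted p 0.611).

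Transfer into mice was examined by setting the in vivo libraries against day 3 in each arm. Nrp1 was higher in vivo with IL-1β, at 10.9 against 1.17 FPKM (0.530 to 1.91), 9.31-fold in FPKM and 2.45 as a log2 ratio. Nt5e (6.50 against 1.79 FPKM, log2 ratio 1.42) and Entpd1 (6.17 against 1.52 FPKM, 1.51) were also higher in this arm. The 3 genes were counted among 7 compared, where 12.0% of all genes were higher and 5.87% lower. All 3 reached 5 FPKM only in vivo in this arm, so this count is again a description. Ratios in this arm rose with transcript length, from a median of -0.38 in the shortest genes to 0.48 in the longest, and without that trend Nrp1 stood at 2.39, Nt5e at 1.33 and Entpd1 at 1.38. With the summed T cell markers set equal, an alternative chosen after seeing the data, Foxp3 (1.08) and Ikzf4 (1.09) were higher as well, 5 genes in all. With a pseudocount of 5, a minimum of 10 FPKM or a 3-fold limit, only Nrp1 remained.

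Without IL-1β none of 5 genes compared was counted, where 2.13% of all genes were higher and 0.665% lower. Entpd1 came closest, at 5.26 FPKM (3.48 to 6.95) against 2.21 (1.18 to 3.16). Its log2 ratio was 0.96 with intervals apart, and it was counted under 4 of the alternatives. Nrp1 stood at 3.54 against 1.54 FPKM (0.84), with intervals that overlapped slightly. Foxp3 stood at 4.44 FPKM in vivo and 7.55 at day 3 (log2 ratio -0.65), against 13.3 and 7.61 in the arm with IL-1β (0.73). The intervals of Foxp3 overlapped in both arms, and the difference between the arms was not tested. The comparison by transfer with IL-1β shares its in vivo library with the comparison of IL-1β in vivo, so the higher values of Nrp1 and Nt5e in both come from the same library.

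A difference between in vivo and day 3 common to both arms was tested with limma over the 4 poly(A)-selected libraries, with 1 residual degree of freedom. It called 4.58% of 8901 genes and 1 of 7 of the genes described here. For Nrp1 the log2 difference was 1.64 (SE 0.419, adjusted p 0.0327 in limma), higher in vivo in both arms. Nrp1 entered this fit only through the in vivo library with IL-1β, so the p-value is not independent of its high value there. Under 6 of 7 alternatives the limma call for Nrp1 was lost, with adjusted p between 0.0509 and 0.981, and with a minimum of 10 FPKM it was 0.0191. Entpd1 had a log2 difference of 1.24 (SE 0.369, adjusted p 0.0818) and Nt5e one of 0.82 (SE 0.395, adjusted p 0.452). Entpd1 entered only through the in vivo libraries and Nt5e only through the one with IL-1β. With cyclic loess the limma estimates were 0.89 for Nrp1, 0.54 for Entpd1 and -0.20 for Nt5e, whose direction thus turned. Foxp3, whose arms went opposite ways, had one of 0.04 (SE 0.404, adjusted p 0.984).

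Nrp1, Nt5e and Entpd1 are known from other cells as well: Nrp1 from endothelium and dendritic cells, Nt5e from stroma and endothelium, and Entpd1 from endothelium and myeloid cells. Summed markers of endothelium, stroma and myeloid cells were higher in the same library. The 7 endothelial markers summed to 16.9 and 14.2 FPKM at day 3 without and with IL-1β, nearly all of it Pecam1, while Cldn5, Kdr, Tek, Vwf and Emcn were listed at 0. In vivo they summed to 53.5 and 112 FPKM, and 2 of 5 compared, Cdh5 (31.5 against 12.0 FPKM, log2 ratio 1.32) and Tek (5.07 against 1.26 FPKM, 1.43), were higher with IL-1β. The 7 stromal markers summed to 0.924 and 1.11 FPKM at day 3 and to 3.83 and 51.6 FPKM in vivo, with 5 of 5 compared higher with IL-1β (median log2 ratio 2.84). All 5, and Tek, reached 5 FPKM only with IL-1β, so the filter fixed their direction. Of all genes compared in vivo, 6.23% were higher with IL-1β.

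The 14 myeloid and dendritic markers summed to 111 and 140 FPKM at day 3 and to 963 and 2508 FPKM in vivo, with 3 of 7 higher with IL-1β (median 0.90). None of the 7 compared is particular to dendritic cells: Flt3 (0.199 against 0.406 FPKM), Xcr1 (0.322 against 0.329), Clec9a (1.26 against 0.699) and Zbtb46 (1.46 against a listed 0) stayed under 5 FPKM. Epithelial markers had 6 of 7 higher (1.51). Of the genes counted in these lists, Csf1r, Krt8 and Cdh1 reached 5 FPKM only with IL-1β, so the filter fixed their direction. The B cell list had 0 of 3 higher and 1 lower, Cd79b (median -1.01). Beside these counts, 6.23% of all genes compared in vivo were higher with IL-1β and 3.48% lower. None of the 9 T cell markers was counted in vivo, and their median was -0.16, beside 0.03 for all genes. The part of these cells in the values of Nrp1, Nt5e, Entpd1 and Foxp3 was not tested. As a share of the summed T cell markers, Foxp3 made up 0.326% and 0.286% at day 3 without and with IL-1β, and 0.200% and 0.645% in vivo.

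**Figure D4:**
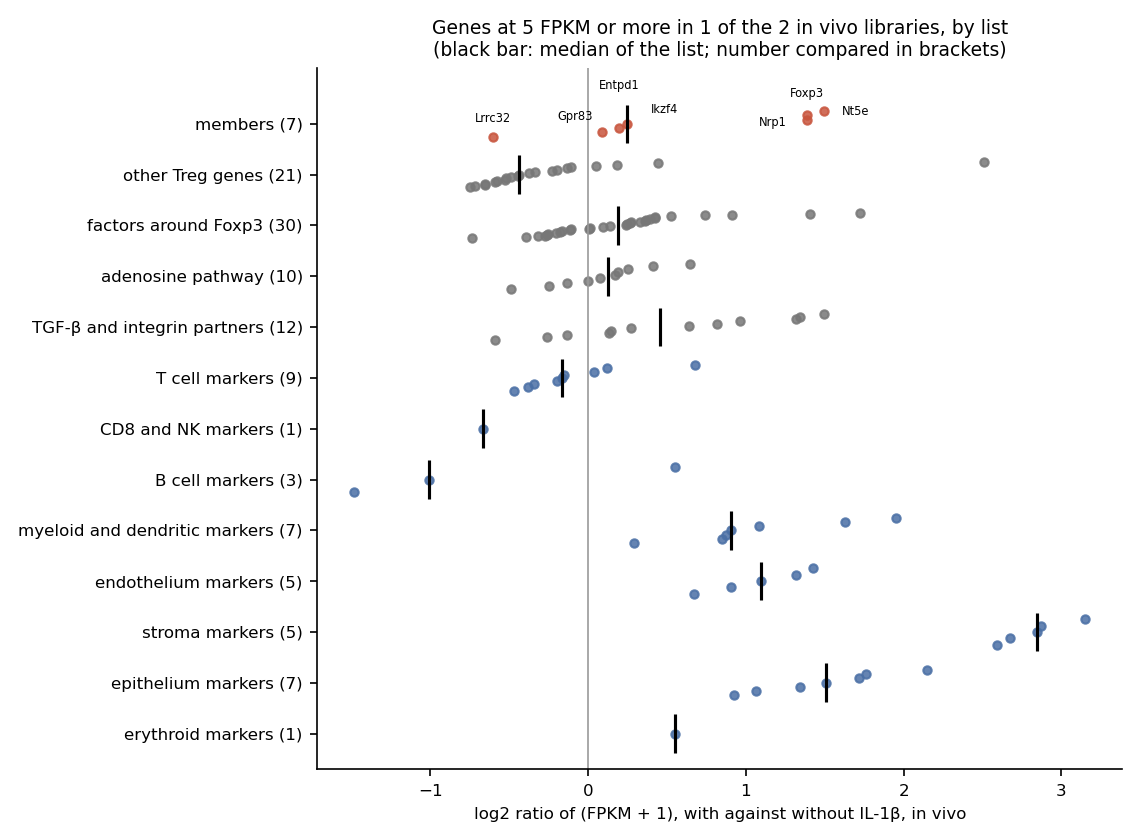
Log2 ratio of (FPKM + 1) in vivo, with against without IL-1β (horizontal axis), for every compared gene of 13 gene lists (rows); black bars are medians and brackets give the number compared. Foxp3, Nrp1 and Nt5e lie to the right of the T cell markers. Their values fall within the ranges of the epithelial and myeloid markers and of other gene lists.

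Of 27 further regulatory T cell genes in the files, 21 were compared in vivo, of which 1 was higher and 0 were lower with IL-1β, where 6.23% and 3.48% of all genes were. The one was Il10, an inhibitory cytokine gene, at 23.1 against 3.24 FPKM (log2 ratio 2.51). Il10 reached 5 FPKM in vivo only with IL-1β, so the filter fixed its direction. The median of the 21 was -0.44, beside 0.03 for all genes. The IL-2 receptor chain Il2ra stood at 276 against 377 FPKM, the inhibitory receptor Ctla4 at 54.3 against 82.2 FPKM and the receptor Tnfrsf18 (GITR) at 391 against 458 FPKM. At day 3, 0 of 21 were counted (median 0.03, beside -0.05 for all genes). From day 3 to in vivo with IL-1β, 2 of 21 were lower, beside 5.87% of all genes, the cytokine signalling inhibitor Socs2 (41.2 against 90.0 FPKM, -1.11) and the actin-capping gene Capg (146 against 320 FPKM, -1.13). Without IL-1β none was counted.

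Of the 30 factors that act on or with Foxp3, 27 to 30 reached 5 FPKM in each poly(A)-selected library. Between these libraries 29 or 30 were compared, while at 1 h only 9 and 11 reached 5 FPKM without and with IL-1β. In vivo, 2 of 30 were higher with IL-1β, near the 6.23% of all genes. These were the nuclear receptor genes Nr4a1 (252 against 94.5 FPKM, log2 ratio 1.40) and Nr4a2 (8.53 against 1.89 FPKM, 1.72), which are induced by antigen receptor signals. Nr4a2 reached 5 FPKM in vivo only with IL-1β, so the filter fixed its direction. At day 3, 0 of 29 were higher and 3 lower, where 2.15% of all genes were lower. The 3 were Foxo3 (2.71 against 10.5 FPKM, -1.63), a forkhead factor, Rel (3.31 against 10.7 FPKM, -1.44) and Nr4a3 (-1.52). Foxo3 and Rel reached 5 FPKM only without IL-1β, so the filter fixed their direction. The medians were 0.19 in vivo and -0.32 at day 3, beside 0.03 and -0.05 for all genes. Ratios at day 3 moved with transcript length, from a median of 0.34 in the shortest genes to -0.42 in the longest. The lists were not corrected for that trend. From day 3 to in vivo with IL-1β, 6 of 30 were higher, beside 12.0% of all genes, and without IL-1β 0 of 29 were. The 6 were Foxo3 (1.73), Rel (1.51), Nr4a1 (1.47), Nr4a2 (1.31), Nr4a3 (2.43) and Tcf7 (1.10). Foxo3, Rel and Nr4a3 were also the genes lower with IL-1β at day 3, and both comparisons share that library. In vivo with IL-1β, Foxo3 and Rel (both 11.3 FPKM) stood near their values at day 3 without it, 10.5 and 10.7 FPKM. Nr4a1, Nr4a2, Nr4a3 and Tcf7 stood above theirs. Foxo3, Rel and Nr4a2 reached 5 FPKM only in vivo in this arm, so the filter fixed their direction. Ratios in this arm also rose with transcript length.

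Around Lrrc32, Nrp1 and Itgae, 3 of 12 compared genes of TGFβ activation and of receptor or integrin partners were higher with IL-1β in vivo, beside 6.23% of all genes. They were Ltbp3, a binding protein of latent TGFβ (6.57 against 1.68 FPKM, log2 ratio 1.5), Cdh1, the E-cadherin that CD103 binds and itself an epithelial marker (8.29 against 2.66 FPKM, 1.34), and Vegfa, a ligand of neuropilin 1 (28.7 against 10.9 FPKM, 1.31). The median was 0.46. At day 3 none of 9 was counted. From day 3 to in vivo, 0 of 9 were counted without IL-1β and 4 of 12 were higher with it, beside 12.0% of all genes, among them the receptor gene Tgfbr2 (46.5 against 12.8 FPKM, 1.79). Over both arms limma called Ltbp3 (log2 difference 2.17, adjusted p 0.00386) and Cdh1 (2.38, adjusted p 0.00235), both near 0 in culture. Both reached 5 FPKM only in the in vivo library with IL-1β and entered the fit only through it. The filter thus also fixed their direction in the counts above. Tgfb1, whose product Lrrc32 holds, ran from 192 to 256 FPKM in these libraries. Itgb7, the chain that pairs with CD103, ran from 79.7 to 113 FPKM, far above Itgae.

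Around Entpd1 and Nt5e, none of 10 adenosine pathway genes compared was counted with IL-1β in vivo (median 0.12), and none of 11 at day 3 (-0.27). With IL-1β 2 of 10 were higher in vivo than at day 3, beside 12.0% of all genes, the ATP-gated channel P2rx4 (16.7 against 6.76 FPKM, 1.19) and Dpp4 (11.1 against 4.91 FPKM, 1.03), which binds adenosine deaminase. Dpp4 reached 5 FPKM only in vivo in this arm, so the filter fixed its direction. The adenosine receptor Adora2a stood at 9.18 against 6.64 FPKM in vivo and at 7.27 against 9.23 FPKM at day 3, with IL-1β first.

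The genes whose pattern was nearest to that of Foxp3 over the 4 poly(A)-selected libraries were sought among 8505 genes. These had 5 FPKM or more in at least 1 of the 4 libraries and a value above 0 in all 4. Unnamed gene models are part of this number but were left out of the ranking. The measure was the distance between log2(FPKM + 1) values, each gene centred on its own mean. Casp1, the caspase that matures IL-1β, was nearest (0.105), at 5.06 and 5.54 FPKM at day 3 and 3.26 and 9.64 FPKM in vivo, without and with IL-1β. Rdh10, an enzyme gene of retinoic acid synthesis (0.138), Gadd45a, induced by stress (0.181), Psmg4, a proteasome assembly gene (0.182), and Serpina3g, a serine protease inhibitor gene (0.188), followed. With 4 libraries such likeness is a description. Among the 7 of the 9 genes that reached 5 FPKM in 1 of these libraries, the nearest to Foxp3 was Nt5e (0.804), the closest pair was Ikzf4 and Lrrc32 (0.604) and the most distant was Nrp1 and Gpr83 (2.07).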

How the data were processed

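Libraries were sequenced on a MiSeq, per the labels' protocols. Reads were aligned with TopHat to the mouse build mm9, per the submitters' processing notes, whose version they do not give. They do not name the tool behind the gene values. The deposited values are the authors' FPKM per gene with both bounds of an interval, per the file headers. Library depth is not stated. Entries with a status other than OK were left out and entries sharing a symbol were summed. Intervals that only touch were taken as overlapping. The members and lists were chosen with earlier results of these data known. All members are named in every library. Of the other lists, genes counted in an IL-1β comparison or in both transfer arms are named, with up to 4 per list of the largest ratio. Genes given for level were named after their values were seen. Log2(FPKM + 1) was fitted in limma 3.58.1 (R 4.3.3), with p-values adjusted by Benjamini-Hochberg over all genes fitted and a limit of 0.05. Other values came from Python 3.11.15 with numpy 2.4.6, pandas 2.3.3 and statsmodels 0.14.6, and figures from matplotlib 3.10.9. Lengths are the longest GENCODE transcript per symbol (90.9% of genes compared at day 3). Coordinates given with FPKM are on mm9, with starts counted from 1. The size rule, the limma fits and the search for the commonest ratio were tested on simulated data. Alternatives were other pseudocounts, filters, scalings and fold limits.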

Additional observations from a re-analysis of the deposited data

Results flagged for a closer look

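Nrp1 moved in opposite directions with IL-1β at day 3 and in vivo, with log2 ratios of -0.23 and 1.38. Each ratio rests on 1 library a group, and the difference between them was not tested. At day 3 the intervals of Nrp1 overlapped.

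Foxp3 moved in opposite directions from day 3 to in vivo in the 2 arms, with log2 ratios of -0.65 without IL-1β and 0.73 with it. This difference was not tested either, since the 4 libraries leave no residual for it, and the intervals of Foxp3 overlapped within each arm.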

How the results depend on the processing

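Counts over the 9 genes changed as follows. For IL-1β at day 3, a 1.5-fold limit counted 2 genes (Ikzf4 and Lrrc32, both lower) in place of 0. For IL-1β in vivo, a pseudocount of 5 and a 3-fold limit each counted 0 in place of 3, a minimum of 10 FPKM counted 2 (without Nt5e) and a 1.5-fold limit 4 (with Lrrc32, lower). For in vivo against day 3 without IL-1β, a pseudocount of 0.1, equal upper quartiles, a 1.5-fold limit and equal T cell markers each counted 1, Entpd1, in place of 0. With IL-1β, a pseudocount of 5, a minimum of 10 FPKM and a 3-fold limit each counted 1 in place of 3, and equal T cell markers counted 5. For day 3 against 1 h without IL-1β, a median of 0 counted 0, and equal upper quartiles and removal of the length trend each counted 1, in place of 4. With IL-1β these 3 settings counted 0, and Foxp3 reversed from 2.19 to -0.10, -0.14 and -0.0069 on the log2 scale. All 3 settings scaled the day 3 values down, and a gene then under 5 FPKM could not be counted. With IL-1β this held for all 4 genes. Without the length trend Gpr83 (1.78), Lrrc32 (1.45) and Ikzf4 (1.04) still differed over 2-fold in this arm. limma for in vivo against day 3 called 0 of the 9 in place of 1 with pseudocounts of 0.1 and 5, no filter, cyclic loess, equal upper quartiles and no arm covariate. The cause of the other changes was not tested.

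Over all genes, limma for in vivo against day 3 called 408, against 264 and 296 with pseudocounts of 0.1 and 5, 189 with cyclic loess, 124 without the arm covariate and 0 with no filter. limma for IL-1β called 0 of the 9 genes in all 10 alternatives, and 34 of all genes without the 1 h stage. For IL-1β in vivo, 538 genes were higher and 301 lower, against 326 and 165 with a pseudocount of 5, 761 and 566 at 1.5-fold, and 293 and 72 at 3-fold. At day 3, 103 and 171 became 53 and 348 with equal T cell markers, 72 and 40 with a pseudocount of 5, and 103 and 87 without the length trend. From day 3 to in vivo with IL-1β, 1032 and 503 became 2013 and 174 with equal T cell markers. Leaving out a replicate was impossible with 1 library a group. No paired analysis was possible because the labels give no replicate number shared between groups. Itgae and Ikzf2 never reached 5 FPKM, and the intervals of Itgae reached 0 in every library.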
